A study of Mus musculus with 20 samples.

Results

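The genes described are the mouse zinc finger protein genes Zfp600 to Zfp999, that is, protein-coding genes whose symbol is Zfp followed by a number from 600 to 999. Ensembl IDs of the count tables were paired with GENCODE M21 symbols, which gave 160 such genes among 20230 protein-coding genes and 37991 IDs in all. The samples were ESCs, embryonic stem cells of the mouse, in which Cnot3 can be deleted on demand. Cnot3 encodes a component of CCR4-NOT, the main cytoplasmic deadenylase. Cells treated with 0.1 µM 4-hydroxytamoxifen (4OHT), which triggers the deletion, are called KO, and cells treated with DMSO are called WT. On day 3, whole-cell RNA and polysome RNA, the fraction bound by several ribosomes, were sequenced from KO and WT. On day 2, both arms received actinomycin D, which blocks transcription, at 10 µg/ml, and whole-cell RNA was taken after 0, 4 and 8 h. Each of the 10 groups held 2 biological replicates, 20 libraries in all, and every SD below is over those 2. The strain label is C57BL/6 throughout. All 12 libraries of day 2 carry the source label Cnot3 cKO ESCs, and so do the KO libraries of day 3. The WT libraries of day 3 are labelled E14Tg2a ESCs, although the study's design describes DMSO-treated conditional cells, so on day 3 the cell line and the deletion cannot be told apart.

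Proteins of this family bind DNA through tandem C2H2 zinc fingers, each folded around a zinc ion and reading a few bases. Many also carry a KRAB domain, which recruits the co-repressor TRIM28 and with it the histone methyltransferase SETDB1, and in ESCs this pathway silences endogenous retroviruses and other repeats. The genes often lie in clusters that grew by local duplication, so neighbours can be close copies. Transcripts of zinc finger transcription factors are known as a short-lived class, and CCR4-NOT shortens poly(A) tails, an early step in the decay of most mRNAs.

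Of the 159 genes with a complete coding transcript, 139 (87.4%) encoded at least 3 C2H2 fingers by a pattern search, with a median of 10 fingers. Among the other protein-coding genes the share was 1.96%. Of 188 other numbered Zfp genes, 87.8% encoded at least 3 fingers, also with a median of 10, so the finger share was not particular to the members. A pattern for the KRAB A box was found in 94 members (59.1%), against 0.746% elsewhere and 37.2% of the other numbered Zfp genes. That pattern was widened once after the members without a match had been listed, and a protein without a match may still hold the domain. The genes lay on 20 chromosomes, 34 of them on chromosome 7 and 20 on chromosome 4. Runs of at least 4 members with gaps under 1 Mb formed 12 clusters with 89 genes. The largest held 17 genes on chromosome 4, between 145510759 and 147848366 (GRCm38), a group tied by earlier work to silencing of retroviral elements.

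The chromosome 4 genes resembled one another upstream as well as in their transcripts, and their promoters are shown because these genes fell together in KO, as described further on. RefSeq windows from 250 bases before to 50 after the start (GRCm38.p6) matched 136 of the 160 genes and 11 of the 17 in the cluster. The capitals mark the string ATTGGGCGG, in which an inverted CCAAT box (ATTGG) overlaps a GC box (GGGCGG). The windows are chr4:145670447-145670746, chr4:146514670-146514969, chr4:147305354-147305653 and chr4:147553027-147553326 on the plus strand, and chr4:147848369-147848668 on the minus strand for Zfp933, which lies at the edge of the cluster and has no match.
Zfp980: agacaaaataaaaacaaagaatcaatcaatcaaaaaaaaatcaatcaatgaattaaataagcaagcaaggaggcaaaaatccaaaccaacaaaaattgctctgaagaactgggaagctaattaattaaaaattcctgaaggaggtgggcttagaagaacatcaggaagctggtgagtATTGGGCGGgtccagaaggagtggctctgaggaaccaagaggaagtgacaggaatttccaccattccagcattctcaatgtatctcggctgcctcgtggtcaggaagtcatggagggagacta
Zfp981: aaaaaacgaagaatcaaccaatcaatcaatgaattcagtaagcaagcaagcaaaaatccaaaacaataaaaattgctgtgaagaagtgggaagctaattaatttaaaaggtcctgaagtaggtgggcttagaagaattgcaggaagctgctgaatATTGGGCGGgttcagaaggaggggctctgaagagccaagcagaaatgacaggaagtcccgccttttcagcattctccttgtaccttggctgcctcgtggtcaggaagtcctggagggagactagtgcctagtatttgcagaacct
Zfp988: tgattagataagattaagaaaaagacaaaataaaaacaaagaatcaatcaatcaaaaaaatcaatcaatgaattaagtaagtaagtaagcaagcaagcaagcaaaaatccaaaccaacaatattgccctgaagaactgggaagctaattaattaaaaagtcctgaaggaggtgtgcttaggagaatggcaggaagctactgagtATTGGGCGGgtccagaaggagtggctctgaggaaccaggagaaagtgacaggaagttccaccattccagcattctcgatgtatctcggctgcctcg
Zfp985: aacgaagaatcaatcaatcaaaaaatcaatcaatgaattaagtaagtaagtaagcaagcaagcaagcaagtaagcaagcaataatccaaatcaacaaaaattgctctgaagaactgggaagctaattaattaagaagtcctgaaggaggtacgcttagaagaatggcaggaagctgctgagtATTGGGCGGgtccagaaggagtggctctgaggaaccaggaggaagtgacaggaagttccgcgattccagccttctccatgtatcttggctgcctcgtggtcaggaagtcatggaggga
Zfp933: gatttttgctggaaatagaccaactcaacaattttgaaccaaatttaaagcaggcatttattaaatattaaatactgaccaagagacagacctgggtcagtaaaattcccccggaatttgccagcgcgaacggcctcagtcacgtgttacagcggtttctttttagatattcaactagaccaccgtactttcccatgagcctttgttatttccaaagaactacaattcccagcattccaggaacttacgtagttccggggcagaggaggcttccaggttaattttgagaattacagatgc
The string, searched on both strands, was in the windows of 8 of the 11 cluster genes (72.7%). Over all windows of the same length it was in those of 82 of 27025 genes (0.303%), 9 of them members. The longest word shared by the most cluster genes was TGGGAAGCTAATTAA, on either strand in 9 of 11 and in 12 of all genes, and Zfp933 and Zfp993 lack it. ATTGG alone was in windows of 41.1% of all genes and 62.5% of members, and GGGCGG alone in 38.2% and 47.1%. CACGTG was found for 8.09% of all genes and 10.3% of members, and TATAAA for 15.7% and 5.88%. The long string was chosen after the windows had been read, so its share is a description of these promoters and no evidence for a factor. Zfp980 shared a median of 34.9% of its 12-base words with the other cluster windows, and Zfp933 and Zfp993 shared 0%. Zfp987 and Zfp993 also lack the string, and both were among the 16 cluster genes lower in KO. Any link between these promoters and the change in KO was not tested.

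Each library held 13832829 to 35170012 reads on genes. Levels are given in CPM, the gene's reads divided by the TMM-scaled library size. Cnot3 stood at 46.2 and 47.1 CPM in WT whole-cell RNA on day 3 and at 7.33 and 8.12 in KO, 16.6% of WT. It was at 18.3% of WT in polysomes and at 10.8% on day 2. The summed level of 10 ESC markers went from between 6787 and 7387 CPM in WT to between 3472 and 3656 in KO on day 3. That of 9 trophectoderm markers went from between 109.9 and 121 CPM to between 544 and 562, and 9 of 9 had reads in every group of day 3. Markers of the 2-cell stage, 7 found, summed to between 108 and 109 CPM in WT whole-cell RNA and between 324 and 334 in KO. The 9 fibroblast markers, a check for feeder cells, summed to 29.4 to 32.0 CPM in WT whole-cell RNA and 51.5 to 57.1 in KO. In polysomes 5 of 9 had reads in WT and 6 in KO, with sums of 52.1 to 68.6 and 70.8 to 72.8 CPM. At 0 h of day 2, 7 had reads in WT and 6 in KO, with sums of 35.4 to 35.9 and 52.8 to 55.2 CPM. Dcn was at 0 in polysomes and at 0 h in both arms. The part of these shifts in the changes below was not tested. The whole-cell libraries of day 3 differed in kind from the other 16, since they alone list a tally of multiply aligned reads.

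The members were mostly expressed at a moderate level. In WT whole-cell RNA on day 3 their median was 3.62 CPM per kb of exon, against 1.33 for other protein-coding genes. Their median percentile among protein-coding genes was 61.2 in WT and 58.7 in KO on day 3, and 57.4 and 51.9 on day 2 before actinomycin D. The 6 highest per kb in WT on day 3, Zfp990, Zfp978, Zfp981, Zfp985, Zfp979 and Zfp988, all belonged to the chromosome 4 cluster, led by Zfp990 with 163.5 CPM per kb. The order depended on the library: at 0 h of day 2, Zfp990 led with 72.3 CPM per kb, followed by Zfp740 with 48.8. Low reads kept 9 members out of the day 3 fit and 10 out of the day 2 fit, among them Zfp616, Zfp648 and Zfp683, so 151 and 150 were tested.

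Many of these transcripts were lower in KO. On day 3 the summed whole-cell level of the 160 genes was 6334 and 6337 CPM in the WT libraries and 3883 and 3914 CPM in the KO libraries. In bulk RNA, fewer cells that express a gene and less RNA per cell cannot be told apart. By edgeR's quasi-likelihood test with Benjamini-Hochberg adjustment over all genes, 63 of 151 members were lower in KO and 7 were higher at an adjusted p under 0.05. Over all genes tested, 12.2% were lower and 16% higher. The median log2 change was -0.40 over members, 0.06 over other protein-coding genes and 0.01 over all genes, and 185 other numbered Zfp genes had a median of -0.30. Scaling by library totals raised the median of all genes to 0.28 and left 39 members lower and 13 higher, with a median of -0.13 for members. With any 1 of the 4 whole-cell libraries left out, between 35 and 41 members were lower.

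Members with and without the KRAB pattern were spread differently. With it, 46 of 90 tested were lower and 1 was higher on day 3, with a median log2 change of -0.57. Without it, 16 of 60 were lower and 6 higher, with a median of -0.19. Over all genes tested, 12.2% were lower and 16% higher. The same order held in polysomes, where 59 of 90 and 24 of 60 were lower, against 21.1% of all genes. The difference between these subsets has no test here, and they also differ in position, since 15 of the 17 genes of the chromosome 4 cluster match the pattern.

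**Figure D1:**
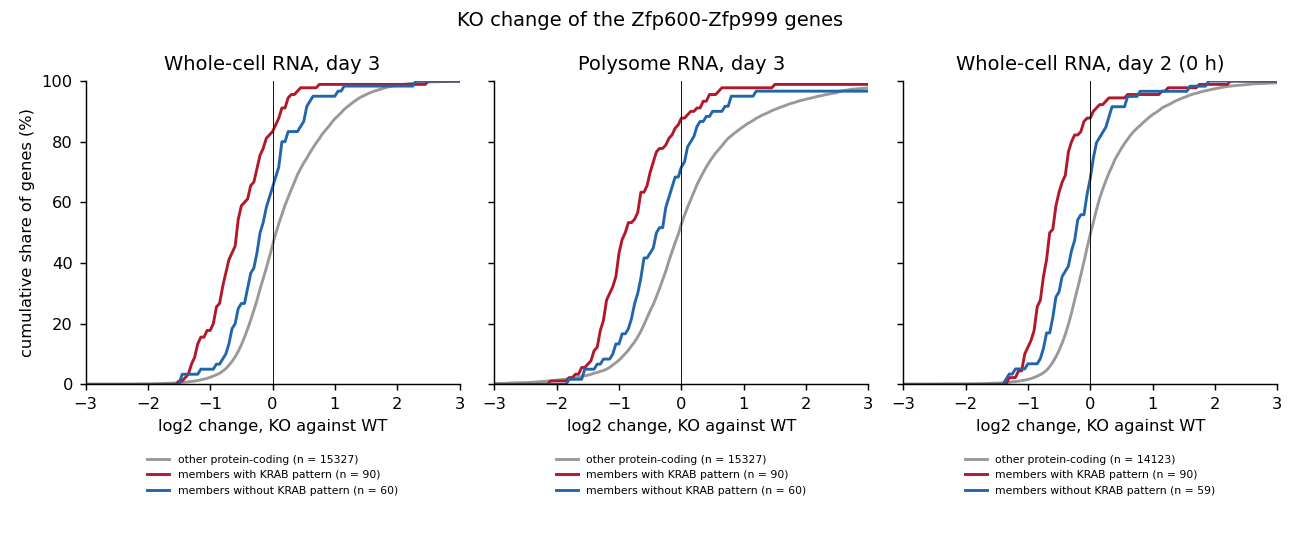
Cumulative share of genes (vertical axis, %) against the log2 change in KO relative to WT (horizontal axis) for members with the KRAB pattern, members without it and other protein-coding genes. The curve of the KRAB members lies furthest left in each panel, with a median of -0.57 in whole-cell RNA of day 3 against 0.06 for other protein-coding genes.

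The chromosome 4 cluster fell almost as a block. In whole-cell RNA on day 3, 16 of its 17 genes were lower and 0 higher, with a median log2 change of -1.22, and its summed level went from 2410 to 1033 CPM. Zfp980 (ENSMUSG00000058186, chr4:145670685-145704441, plus strand), a KRAB protein gene with 13 fingers, stood at 162 and 161 CPM in WT and at 55.5 and 55.2 CPM in KO. The log2 change was -1.54 (SE 0.23, edgeR adjusted p = 0.00121). Zfp990, the most abundant member, stood at 563 and 581 CPM in WT and at 248 and 247 CPM in KO, with a log2 change of -1.21 (SE 0.19, edgeR adjusted p = 0.0016). Zfp982, which has been linked to ESC self-renewal, went from 68.3 ± 0.38 to 32.1 ± 0.04 CPM (SD, n = 2), a log2 change of -1.09. The exception was Zfp933, the gene at the cluster's edge, at 15.1 and 15.7 CPM in WT and 13 and 12.8 CPM in KO (log2 change -0.26, edgeR adjusted p = 0.213). Values of single genes in this cluster are uncertain, because a median of 65.0% of their 50-base stretches also occur in another gene, and the authors' treatment of such reads could divide them in more than 1 way. Zfp933 shares 1.07% of its stretches.

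Other clusters differed from it and from each other. All 9 members of a chromosome 7 cluster (41633203 to 43618285) were lower on day 3, with a median log2 change of -0.90, and a median of 0.562% of their stretches recur elsewhere. It holds Zfp658, at 13.7 and 15.6 CPM in WT and 5.31 and 5.81 CPM in KO, and Zfp819, linked to repression of retroviral elements in pluripotent cells, at 25.4 and 24.3 CPM in WT and 13.9 and 12.3 CPM in KO. Their log2 changes were -1.39 (SE 0.20) and -0.92 (SE 0.16), with edgeR adjusted p of 0.000957 and 0.00275. At the other end, 0 of 5 members of a chromosome 6 cluster passed in either direction, with a median of 0.01. In a chromosome 17 cluster 3 of 13 were lower, where 12.2% of all genes were. Zfp740 on chromosome 15, outside any cluster, had the third lowest change of all members, at 267 and 268 CPM in WT and 98.4 and 93.9 CPM in KO (log2 change -1.48, SE 0.17, edgeR adjusted p = 0.000351).

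**Figure D2:**
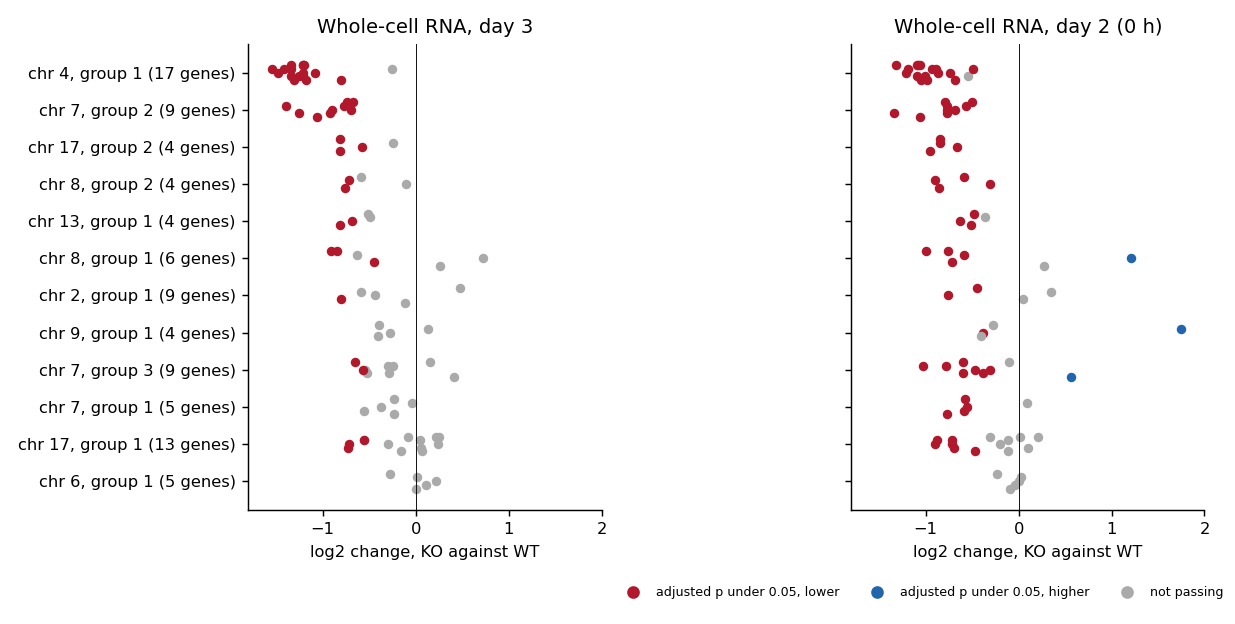
Log2 change in KO relative to WT (horizontal axis) for each tested gene of the 12 clusters (rows, ordered by their median on day 3), in whole-cell RNA of day 3 and of day 2 at 0 h. Points are genes, coloured by whether they passed an adjusted p of 0.05; the chromosome 4 row has 16 lower genes in each panel and the chromosome 6 row has 0.

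Of the members with known roles in silencing, Zfp809, which recognises the primer binding site of murine leukaemia viruses, stood at 46.1 and 47.3 CPM in WT and 38.2 and 39.0 CPM in KO. Its log2 change was -0.28 and did not pass (edgeR adjusted p = 0.18). Zfp932, a repressor of endogenous retroviruses, stood at 42.2 and 37.0 CPM in WT and 20.6 and 20.2 CPM in KO and did pass (log2 change -0.96, SE 0.15, edgeR adjusted p = 0.00167), although 55.5% of its stretches recur elsewhere. Over the 99 tested members with under 5% shared stretches, 36 were lower and 7 higher on day 3, with a median of -0.30. Of all genes, 12.2% were lower and 16% higher. Zfp827, which brings the NuRD complex to telomeres, went from 13.2 ± 0.57 to 5.81 ± 0.14 CPM (SD, n = 2), a log2 change of -1.18. Zfp644, a partner of the methyltransferases G9a and GLP, was at 122 and 122 CPM in WT and 117 and 114 CPM in KO and did not pass (log2 change -0.08, edgeR adjusted p = 0.681).

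The risers were few and did not include any gene of the chromosome 4 cluster. The 7 higher members were Zfp641, Zfp655, Zfp672, Zfp703, Zfp711, Zfp750 and Zfp839. Zfp711, an X-linked gene whose product works with the demethylase PHF8, went from 5.90 and 5.42 CPM to 13 and 12.1 CPM (log2 change 1.15, SE 0.20, edgeR adjusted p = 0.00247). Zfp750, known for its role in epidermal differentiation, went from 9.13 and 8.60 CPM to 17.9 and 18.7 CPM (log2 change 1.05, SE 0.14, edgeR adjusted p = 0.000732). Neither has a KRAB match. Members named for KO against WT by size of change were chosen among those whose groups do not overlap. Zfp703, a co-repressor of the NET family, and Zfp641 started near the lower limit, at 0.211 and 0.281 CPM and at 0.351 and 0.442 CPM in WT. In KO they stood at 1.06 and 1.36 CPM and at 2.38 and 2.07 CPM. The calls for Zfp655, Zfp672 and Zfp839, with log2 changes of 0.52, 0.63 and 0.51, were lost with any single whole-cell library left out.

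Polysome RNA showed the same direction. There, 84 of 151 members were lower in KO and 8 higher by edgeR, where 21.1% of all genes were lower and 15.9% higher. The median was -0.67 over members and -0.04 over other protein-coding genes. Of 185 other numbered Zfp genes, 82 were lower and 10 higher, with a median of -0.45. The summed level of the members went from 4379 and 4213 CPM to 2756 and 2876 CPM. Scaling by library totals left 55 lower and 14 higher, and fitting the 4 polysome libraries alone left 49 lower and 4 higher. The comparisons with WT in whole-cell RNA and polysomes come from separate libraries: 57 members were lower in both, 90.5% of those lower in whole-cell RNA and 67.9% of those lower in polysomes. Over all genes these shares were 72.6% and 41.9%. Zfp980 was again lowest, at 8.46 and 17.2 CPM in WT and 2.81 and 3.10 CPM in KO (log2 change -2.12, SE 0.29, edgeR adjusted p = 0.000468). Zfp703 rose most, from 0.578 and 0.707 CPM to 6.79 and 12.4 CPM (log2 change 3.88, SE 0.38, edgeR adjusted p = 7.48e-05). The WT polysome replicates differed more than those of any other group, with a chi-square per degree of freedom over genes of 77.0 against 1.29 to 12.8, and the pair of Zfp980 values shows it.

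**Figure D3:**
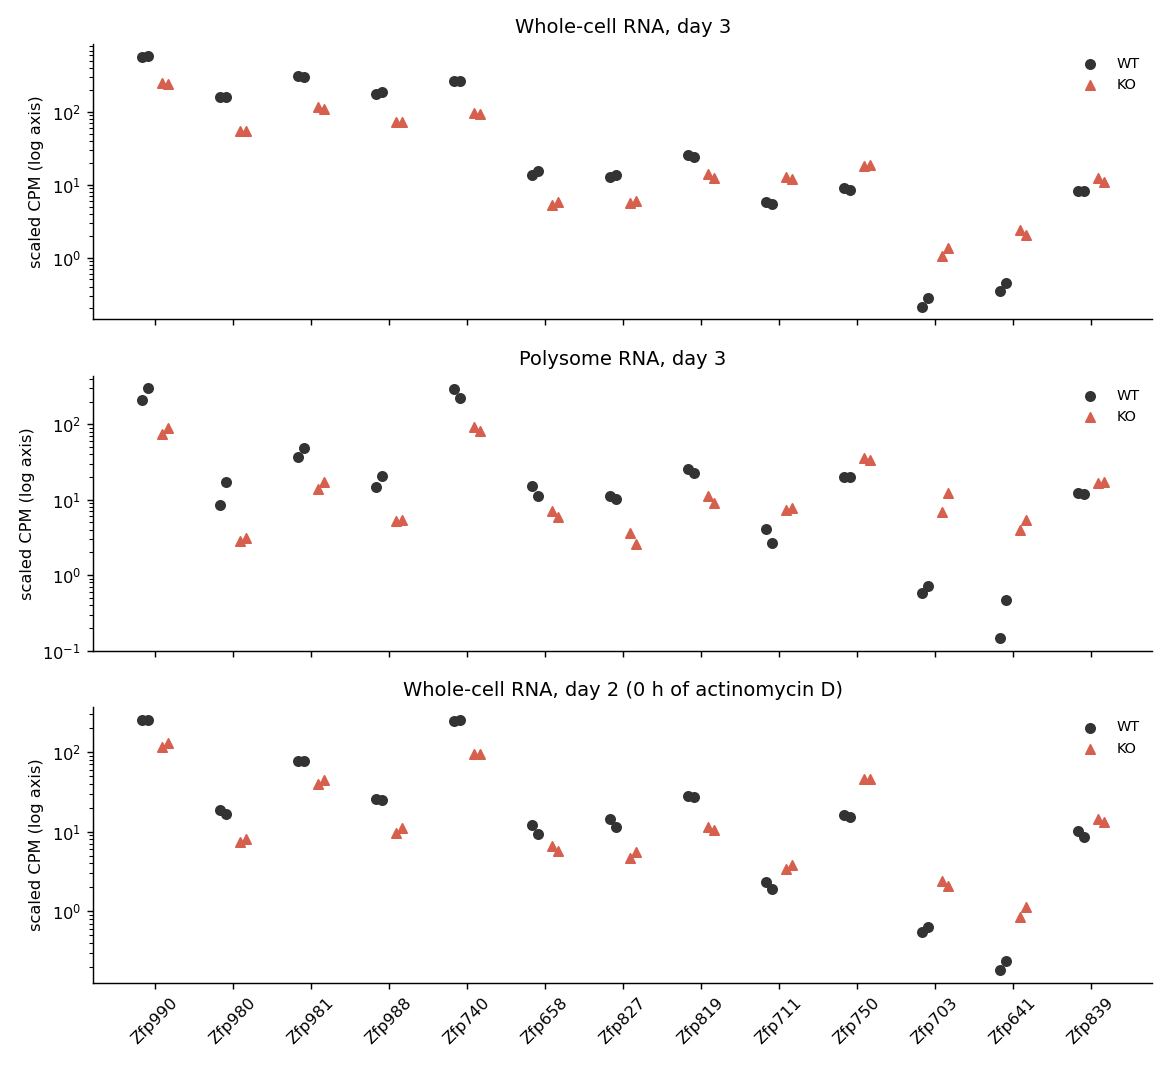
Scaled CPM (log axis) of 13 named members in each library of whole-cell RNA and polysome RNA of day 3 and of 0 h on day 2; circles are WT, triangles KO, 2 libraries each. KO points lie under the WT points for the 8 genes on the left and above them for the 5 on the right in every panel.

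Whether the polysome change differed from the whole-cell change was tested in the same fit. By edgeR, 0 members passed in either direction, as did 0.00546% of all genes in each; 18 members had an unadjusted p under 0.05, and DESeq2 also called 0. The median difference was -0.16 over members and -0.06 over other protein-coding genes. With replicate 1 of WT polysomes left out, 10 members were higher and 31 lower, so this result turned on that library.

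In WT alone, polysome levels relative to whole-cell levels varied with how unique a member's sequence is. Of 151 members, 60 were lower in polysomes and 28 higher, where 26.7% of all genes were lower and 29% higher, and scaling by library totals gave 47 and 41. Without either WT whole-cell library, 12 or 13 were higher. Among the 99 tested members with under 5% of their stretches in another gene, 23 were lower and 23 higher, with a median of -0.11. Among the 15 with over 50%, 13 were lower and 0 higher, with a median of -2.15. Zfp987, at 93.1%, had 53.5 and 56.5 CPM in whole-cell RNA and 1.74 and 1.71 CPM in polysomes. It had 1.42 and 1.62 CPM in the whole-cell RNA of day 2, so its level was high only in the 4 whole-cell libraries of day 3. Over the members with more than 50% shared stretches the median ratio of day 3 to 0 h whole-cell levels in WT was 4.93, and over those under 5% it was 1.28. The part of shared sequence and of library kind in these differences was not tested. Among members with little shared sequence, Zfp628 had the highest polysome level relative to whole-cell RNA, at 14.2 and 11.6 against 3.72 and 3.94 CPM (log2 difference 1.75, SE 0.21, edgeR adjusted p = 5.69e-05), followed by Zfp609, whose product binds the cohesin loader NIPBL and the Integrator complex.

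The summed level and the median change of members were already lower in KO on day 2, in libraries whose arms share a source label. At 0 h the summed ESC markers stood at 5659 to 5670 CPM in WT and 3893 to 3940 CPM in KO, trophectoderm markers at 42.6 to 48.8 and 107 to 108 CPM, and 2-cell-stage markers at 2.73 to 4.08 and 8.91 to 9.67 CPM. The summed level of the members was 4122 and 4085 CPM in WT and 2951 and 3012 CPM in KO. The difference at 0 h was first read from straight lines fitted through 0, 4 and 8 h in each arm. By edgeR, 36 of 150 members (24%) were lower in KO and 6 (4%) higher. Of all genes, 22.3% were lower and 22.8% higher, so the share of members called lower in this fit was near the background. A straight line described these genes poorly, because most of their loss came before 4 h. With each time as its own group, a fit added after the data were seen, 98 were lower and 10 higher, against 32.9% and 29.8% of all genes, and a fit of only the 4 libraries at 0 h gave 94 and 12. Of 183 other numbered Zfp genes, 17 were lower and 10 higher in the line fit, and 106 and 15 in the added fit. The medians of the line fit and of the added fit were -0.30 and -0.35 over those genes and -0.49 and -0.50 over members. Leaving out either WT library at 0 h left 19 or 20 lower in the line fit, and scaling by library totals left 21 lower and 7 higher.

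Single members moved on day 2 as on day 3. In the chromosome 4 cluster 16 of 17 genes were lower on day 2 in the added fit, with a median log2 change of -1.002, and all 9 of the chromosome 7 cluster were lower, with a median of -0.77. Zfp980 stood at 18.7 and 16.9 CPM in WT and 7.42 and 8.19 CPM in KO, and Zfp740 at 247 and 250 CPM in WT and 95.4 and 95.0 CPM in KO. The line fit gave log2 changes of -1.18 (SE 0.16) and -1.44 (SE 0.08), with edgeR adjusted p of 6.66e-05 and 1.12e-07. Zfp750 was higher in KO, at 16.3 and 15.1 CPM in WT and 46.5 and 46.3 CPM in KO (log2 change 1.63, SE 0.37, edgeR adjusted p = 0.00583). In the added fit, 56 members were lower in all 3 settings, whole-cell and polysome RNA of day 3 and whole-cell RNA of day 2. That is 37.3% of the 150 tested in each, where 9.71% of all genes were. The 5 higher in all 3 were Zfp641, Zfp703, Zfp711, Zfp750 and Zfp839. That is 3.33% of members, where 10.9% of all genes were.

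After transcription was blocked, most members were lost faster than the bulk of genes. In WT the slope over 8 h was lower than 0 for 123 of 150 members and higher for 2 by edgeR, where 38.8% of all genes were lower and 35% higher. The median slope was -0.22 log2 per hour over members and -0.01 over other protein-coding genes. In KO, 134 members were lower and 1 higher, where 36.3% and 31.6% of all genes were, with a median of -0.27. Slopes are relative to each library's scaling, so a gene that keeps its share of the remaining RNA has a slope of 0. The 183 other numbered Zfp genes behaved alike, with 156 lower in WT and a median of -0.23. Scaling to ribosomal protein mRNAs moved the median slope of all genes in WT to -0.15 and of members to -0.37.

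The loss was concentrated before 4 h. Over the interval from 0 to 4 h, added after the data were seen, 137 members fell in WT and 138 in KO, with 1 higher in each, where 36.2% and 33.6% of all genes fell and 35% and 30.5% rose. The median log2 change was -1.78 in WT and -1.64 in KO, and 0.02 over other protein-coding genes in each arm. The median share of the 0 h level left at 4 h was 29% in WT and 32.2% in KO, and 115 of 150 members in WT had less than 50% left. Of the other protein-coding genes, 20.8% had.

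From 4 to 8 h fewer members moved. In WT, 20 members fell and 17 rose, where 22.9% and 25.1% of all genes did, with a median log2 change of 0.08. Scaling by RLE size factors made these 16 and 26, and by library totals 23 and 7. In KO, 45 fell and 2 rose, where 22.5% and 20.3% of all genes did, with a median of -0.35. Of 183 other numbered Zfp genes, 69 fell and 3 rose in KO, with a median of -0.31. At 8 h the median share left over members was 31.5% in WT and 23.5% in KO.

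**Figure D4:**
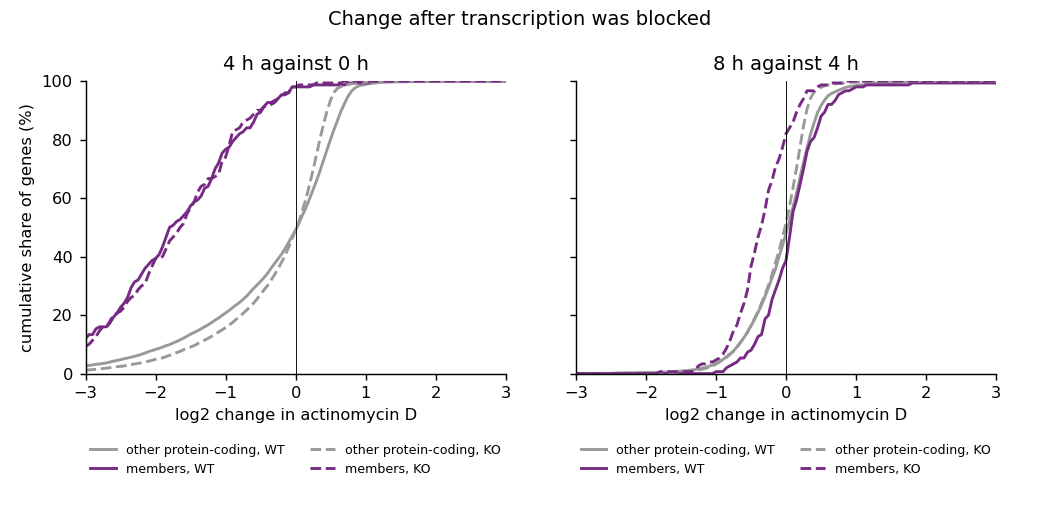
Cumulative share of genes (vertical axis, %) against the log2 change in actinomycin D (horizontal axis) from 0 to 4 h and from 4 to 8 h, for members and other protein-coding genes; solid lines are WT, dashed lines KO. Between 0 and 4 h the member curves lie far to the left in both arms (medians -1.78 and -1.64), and between 4 and 8 h the medians of members are 0.08 in WT and -0.35 in KO.

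Some members all but disappeared. Zfp819 fell in WT from 27.7 and 27.2 CPM to 0.772 and 1.13 CPM at 4 h and 0.879 and 0.956 CPM at 8 h. In KO it fell from 11.3 and 10.4 CPM to 0.544 and 0.575 CPM and then 0.486 and 0.591 CPM. The share left at 4 h was 3.47% in WT and 5.15% in KO, and the slopes were -0.70 and -0.64 log2 per hour (SE 0.12 and 0.14, edgeR adjusted p = 0.000708 and 0.00286). Zfp772 had the lowest slope in WT, -0.70, with 6.35% left at 4 h, and Zfp954 had 3.02% left. Both are KRAB genes of another cluster on chromosome 7, which starts at 6131491. Other members kept much of their level: in the chromosome 4 cluster the median share left at 4 h was 50.02% in WT and 48.9% in KO, and Zfp980 kept 73.8% and 63.2%. Much of that cluster's sequence recurs in other genes. The median 4 h change in WT was -1.90 over members with under 5% shared stretches, -1.75 with 5% to 50% and -1.04 with over 50%. The part of shared sequence in these values was not tested.

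How fast a member was lost and how far it fell in KO were weakly and inversely related. Members that lost more by 4 h tended slightly to fall less in KO. Across 150 members the correlation of the 4 h change in WT with the KO change in whole-cell RNA of day 3 was -0.20 (Pearson) and -0.14 (Spearman), as a description over genes that share libraries and clusters. In the chromosome 6 cluster all 5 genes had slopes under 0 in both arms, with a median of 24.1% left at 4 h in WT. Between KO and WT, 0 of these 5 passed in whole-cell RNA on either day. The chromosome 7 cluster that starts at 41633203 had a median of 22.3% left, and all 9 of its genes were lower in KO on both days. Members with under 3, 3 to 9 and 10 or more fingers had medians of 33.9%, 28.5% and 27.7% left at 4 h in WT, and median slopes of -0.24, -0.22 and -0.22 log2 per hour. The motif TGTANATA of Pumilio proteins, RNA-binding proteins that recruit CCR4-NOT, searched on the sense strand of 3′UTRs, was in 36 of 159 transcripts (22.6%), close to the 21.1% of other protein-coding genes. Members with and without it had median 4 h changes of -1.81 and -1.8 in WT and -1.802 and -1.60 in KO. Their median KO changes on day 3 were -0.52 and -0.37, and none of these differences has a test here.

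One member went against the loss, Zfp692, a zinc finger gene with 3 fingers and no KRAB match. In WT it rose relative to other RNA, from 26.9 and 25.9 CPM at 0 h to 58.1 and 52.7 CPM at 4 h and 84.9 and 81.7 CPM at 8 h. In KO it rose less, from 33.1 and 30.3 CPM to 51.6 and 49.3 CPM and then 60.1 and 61.6 CPM. Its slopes were 0.21 (SE 0.02) and 0.12 (SE 0.02), with edgeR adjusted p of 1.04e-07 and 3.22e-05. The slopes differed by -0.09 (SE 0.02, edgeR adjusted p = 0.0138), a call lost under scaling to mitochondrial mRNAs (-0.03) and with either WT library at 0 h left out. Under scaling to ribosomal protein mRNAs the KO slope was 0.01 and did not pass. Zfp653 was the other member with a slope above 0 in WT, 0.06, which became -0.09 under ribosomal protein scaling.

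KO and WT loss were also compared directly. For the slope over 8 h, 3 members were higher in KO (slower loss) and 3 lower, where 10.2% and 8.78% of all genes were. With time as a factor, the change from 0 to 8 h was lower for 36 of 150 and higher for 3, where 24.3% and 18.2% of all genes were, so the share lower was near the background. In the straight-line fit, the 3 higher members were Zfp622, Zfp706 and Zfp638, and the 3 lower ones Zfp692, Zfp740 and Zfp652. Scaling to mitochondrial mRNAs gave 4 higher and 0 lower. For the first 4 h, the log2 change was higher in KO than in WT for 10 members and lower for 6. Of all genes, 13.5% and 13.1% were, and RLE scaling gave 16 and 3 members. From 4 to 8 h, the change was lower in KO for 22 members and higher for 2, where 11.3% and 11.1% of all genes were. The median difference was -0.33 over members and -0.04 over other protein-coding genes. Of 183 other numbered Zfp genes, 51 were lower and 5 higher, with a median of -0.39, so this shift was not particular to the members.

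Zfp622, the counterpart of a yeast factor in maturation of the large ribosomal subunit, had the largest difference in the slope and in the 4 h change among the members that passed with a mean of at least 2 CPM. In WT it fell from 94.3 and 105 CPM to 19.3 and 17.7 CPM at 4 h and 11.4 and 12.3 CPM at 8 h. In KO it went from 96.0 and 117 CPM to 65.5 and 71.3 CPM and then 38.1 and 38.6 CPM. The groups overlapped at 0 h and did not overlap later, with 18.6% left at 4 h in WT and 64.3% in KO. The 4 h change differed by 1.79 log2 (SE 0.11, edgeR adjusted p = 2.23e-11) and the slope by 0.21 per hour (SE 0.06, edgeR adjusted p = 0.0386). The slope call was lost with any 1 of the 4 libraries at 0 h left out, and with some later ones.

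Zfp830, needed for pre-mRNA splicing and early embryos, differed in its course and not in its slope over 8 h. It fell in WT from 46.4 and 45.3 CPM to 3.42 and 3.20 CPM at 4 h and stayed at 3.63 and 3.37 CPM at 8 h. In KO it fell from 44.4 and 42.9 CPM to 9.52 and 8.62 CPM and then to 3.60 and 3.77 CPM. The difference in the 4 h change was 1.54 log2 (SE 0.14, edgeR adjusted p = 3.47e-11), and from 4 to 8 h it was -1.40 (SE 0.20, edgeR adjusted p = 5.32e-07). Its 3′UTR of 472 bases holds 2 matches to the Pumilio motif, shown in capitals as candidates for a reader who follows up this gene. The same 3′UTR also holds 2 matches to the AU-rich word TATTTAT, which are not shown. Whether either motif bears on this course was not tested. The stretches with the Pumilio matches lie at chr11:82765729-82765758 and chr11:82765829-82765858 on the plus strand, and Zfp622 has 0 matches to that motif.
Zfp830 site 1: aaaatctaagtTGTAAATAttgcacatagc
Zfp830 site 2: tatgacctcgaTGTATATAtattttcaagc
These are GENCODE M21 transcript letters, and a match is not a shown binding site.

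Zfp638, which silences unintegrated retroviral DNA, kept 67.0% at 4 h and 36.3% at 8 h in WT and 80.2% and 57.9% in KO. Its levels were 285 and 271 CPM at 0 h and 99.9 and 102 CPM at 8 h in WT, against 234 and 239 CPM and 138 and 136 CPM in KO, so the order of the arms turned over. The slope differed by 0.08 log2 per hour (SE 0.01, edgeR adjusted p = 0.00097). Zfp706, reported to promote exit from the naive state, kept 52.4% in WT and 87.4% in KO at 8 h (slope difference 0.09, SE 0.02, edgeR adjusted p = 0.0238). Zfp740 and Zfp652 went the other way. At 8 h, Zfp740 kept 59.1% in WT and 36.6% in KO, and Zfp652, a transcriptional repressor, kept 58.2% and 36.5%. Their slopes differed by -0.09 (SE 0.02) and -0.08 (SE 0.01), with edgeR adjusted p of 0.00172 and 0.00113, and both were also lower in KO at 0 h. Both calls were lost under scaling to mitochondrial or ribosomal protein mRNAs.

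**Figure D5:**
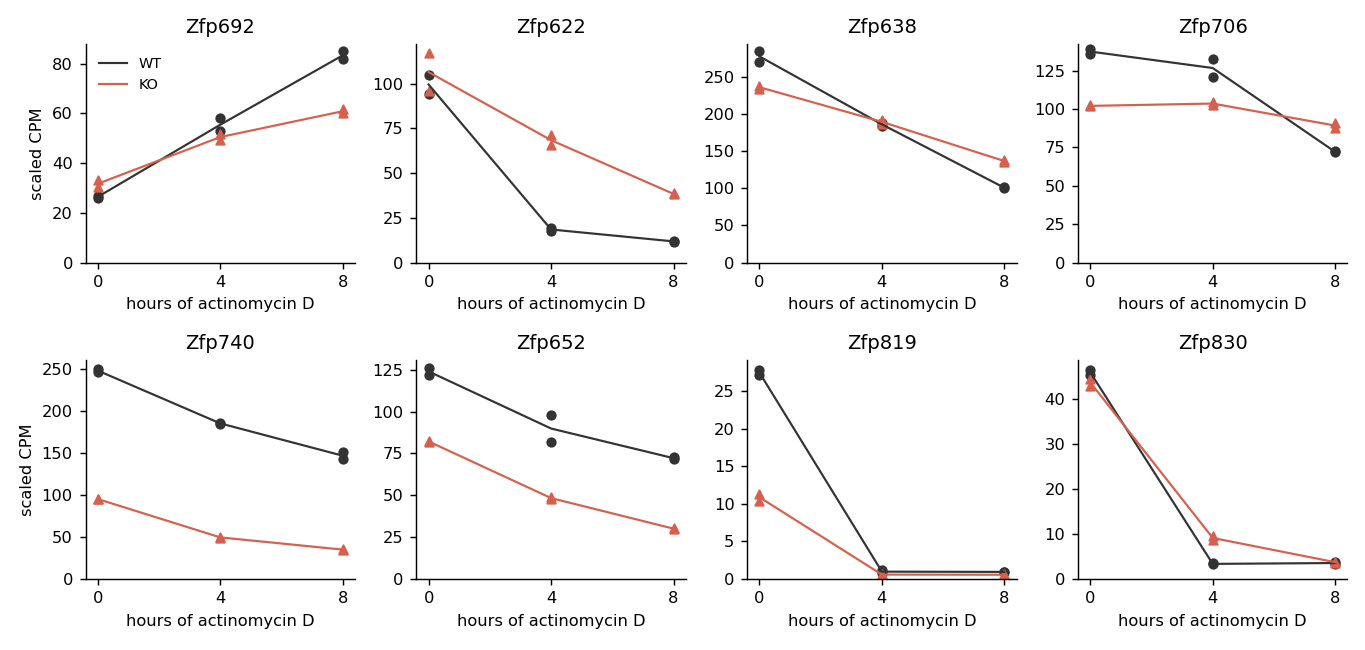
Scaled CPM (vertical axis) of 8 members over hours of actinomycin D (horizontal axis); points are libraries, 2 per time and arm, circles WT and triangles KO, and lines join the means. Zfp622 keeps 64.3% of its 0 h level at 4 h in KO and 18.6% in WT, and Zfp692 rises in both arms.

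The co-repressor machinery that KRAB proteins act through was looked at by a list of 26 genes. In whole-cell RNA of day 3, 7 passed as lower and 0 as higher, where 12.2% and 16% of all genes did. In polysomes 10 were lower and 0 higher, where 21.1% and 15.9% of all genes were. At 0 h of day 2, 14 were lower and 2 higher in the line fit (22.3% and 22.8% of all genes), and 20 and 3 in the added fit (32.9% and 29.8%). After actinomycin D, 14 slopes passed as above 0 and 9 as under 0 in WT, where 35% and 38.8% of all genes did. Trim28, the scaffold, stood at a mean of 3149 CPM in WT and 2161 CPM in KO on day 3 and did not pass (log2 change -0.54, edgeR adjusted p = 0.0692), but passed at 0 h of day 2 (-0.36, edgeR adjusted p = 0.00212). Cbx1, a heterochromatin protein, went from 624 ± 52.0 to 286 ± 2.77 CPM (SD, n = 2; log2 change -1.13, SE 0.19, edgeR adjusted p = 0.00216). Setdb1, the methyltransferase, was at 187 ± 4.84 CPM in WT and 175 ± 0.16 CPM in KO and did not pass on day 3 in whole-cell RNA (log2 change -0.10, edgeR adjusted p = 0.693).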

How the data were processed

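Values are whole-number read counts per Ensembl gene, deposited by the authors. Per the submitters' processing notes, reads were processed with STAR 2.3.0e, HTSeq and mm9; the HTSeq version and its settings are not given in the sources used here. Tallies that name no gene were left out of library sizes and tests; reads on no gene were 4.75% to 19.0% of each library's reads. Symbols, positions and transcripts came from GENCODE M21 (GRCm38) by gene ID, and promoters from RefSeq (GRCm38.p6). Counts were scaled by TMM and tested with edgeR 4.0.16 (quasi-likelihood, filterByExpr with a minimum count of 10, Benjamini-Hochberg over all genes, threshold 0.05). The 8 libraries of day 3 were fitted by group, and the 12 of day 2 with an intercept and a slope per arm. A fit with time as a factor was an alternative for the slopes; its 0 h comparison and 4 h intervals were added after the data were seen, as were the splits by KRAB pattern, fingers, clusters and shared 50-base stretches. Named members were up to 6 in each direction per comparison (4 for differences between slopes and for polysome against whole-cell RNA) that passed with a mean of at least 2 CPM, the 6 highest per kb, and 12 with a known role. For KO against WT, groups also could not overlap. Zfp933 and members named only for the added intervals were chosen after their values were seen. Members and lists were chosen with earlier results of these data known. Alternatives were DESeq2 1.42.0, other scalings and filters, a replicate block and leaving out each library. Statistical scripts were tested on simulated counts.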

Additional observations from a re-analysis of the deposited data

Results flagged for a closer look

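The change over time after actinomycin D was compared between KO and WT by interaction terms, and the members below are those for which edgeR's test of that difference passed. For the slope over 8 h, 3 members were higher in KO and 3 lower, where 10.2% and 8.78% of all genes were. The differences were 0.21 log2 per hour for Zfp622, 0.092 for Zfp706 and 0.084 for Zfp638, and -0.090 for Zfp692, -0.087 for Zfp740 and -0.084 for Zfp652. For the change from 0 to 4 h, 10 were higher and 6 lower, where 13.5% and 13.1% of all genes were. Among them the log2 differences were 1.79 for Zfp622, 1.54 for Zfp830, 1.35 for Zfp954 and 0.92 for Zfp811, and -0.57 for Zfp961, -0.52 for Zfp740, -0.40 for Zfp692 and -0.33 for Zfp687. The Zfp954 value rests on few reads at 4 h, 7 and 6 in WT and 16 and 7 in KO (SE 0.48, edgeR adjusted p = 0.0328). For the change from 4 to 8 h, 2 were higher and 22 lower, where 11.1% and 11.3% of all genes were. Of 183 other numbered Zfp genes, 5 were higher and 51 lower. The 2 higher members were Zfp706 with 0.60 and Zfp638 with 0.42. The lowest members were Zfp830 with -1.40, Zfp770 with -1.10, Zfp941 with -0.98 and Zfp977 with -0.95. Zfp770 stood at 7.28 and 6.30 CPM at 4 h and 8.83 and 7.42 CPM at 8 h in WT, and at 4.51 and 5.43 CPM and then 2.55 and 3.00 CPM in KO.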

How the results depend on the processing

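Values as lower and higher member counts unless stated. Whole-cell RNA, day 3: 39 and 13 with library totals, 13 higher with 4 libraries, 4 higher with no filter, and 35 to 84 and 3 to 10 with 1 library left out. Polysomes: 55 and 14 with library totals, 49 and 4 with 4 libraries, 56 to 86 and 4 to 14 with 1 left out. Polysome minus whole-cell change: 0 to 31 and 0 to 10 with 1 left out, both highest without WT polysome replicate 1; its median became 0.028 with no filter and ran from -0.21 to 0.014 with 1 left out. Polysome against whole-cell RNA in WT: 51 to 62 and 12 to 34 with 1 left out. Day 2: 94 and 12 with 4 libraries, 98 and 10 with time as a factor, 21 lower with library totals, 2 higher with DESeq2, 19 to 47 and 2 to 7 with 1 left out. WT slope: 1 higher with library totals, no filter or ribosomal protein scaling, and 106 to 126 and 1 to 2 with 1 left out. KO slope: 4 higher with mitochondrial and 0 with ribosomal protein scaling, 123 to 135 and 1 to 1 with 1 left out. Slope difference: 0 lower with mitochondrial scaling, 1 with ribosomal protein scaling, 36 with time as a factor, 2 to 5 and 1 to 3 with 1 left out; its median became 0.022 and 0.0011 under those scalings. Change to 4 h: 2 higher in KO with RLE, and 3 and 16 for the difference, with 6 to 7 and 8 to 11 with 1 left out. Change from 4 to 8 h: 26 higher in WT with RLE and 7 with library totals, whose median was -0.063; the difference gave 18 to 27 and 2 to 2 with 1 left out. The replicate numbers were not taken to pair the samples, since correlations of deviations ran from -0.11 to 0.26 and 3 of 21 pairs of groups were over 0.1; with a replicate block 27 members were lower on day 2.

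Some directions turned. With library totals on day 3, Zfp644 was 0.18 (from -0.081), Zfp687 0.088 (from -0.17) and Zfp830 0.053 (from -0.21), and Zfp706 was 0.11 in polysomes (from -0.15). With 1 library left out, polysome changes ran from -0.017 to 0.21 for Zfp644, -0.19 to 0.30 for Zfp687, -0.31 to 0.037 for Zfp706 and -0.12 to 0.31 for Zfp830, with the lowest without WT polysome replicate 2 and the highest without replicate 1. On day 2, Zfp830 was -0.048 with 4 libraries and -0.071 with time as a factor, and ran from -0.0077 to 0.42 with 1 left out. Zfp644 was -0.051 with DESeq2, -0.053 with RLE and -0.018 with time as a factor, and ran from -0.089 to 0.26. The Zfp653 WT slope, 0.056 and past the threshold before, was -0.087 with ribosomal protein scaling, and the Zfp706 KO slope 0.050 with mitochondrial scaling. The cause was not tested.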
